A study of Mus musculus with 6 samples.

Results

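The sirtuin genes Sirt1 to Sirt7 and the genes of the CCAR proteins, Ccar1 and Ccar2, were examined in mouse bone marrow-derived macrophages with and without the KAT7KO genotype. These 9 genes were taken by gene symbol from a deposited table of 18039 genes, 7 of them sirtuins and 2 of them CCAR genes, and all 9 had enough counts to be tested among the 12483 genes tested. Marrow cells of mice had been cultured with M-CSF, which turns marrow progenitors into macrophages, at 20 ng/mL over 7 days. The genotypes were 2, KAT7KO and Ctrl, each with 3 libraries, and bulk RNA was sequenced from both ends of each fragment. Both genotypes received the same culture and no other treatment is given in the labels. The product of Kat7, an enzyme of the MYST family known too as HBO1, acetylates lysines of histones. The labels give neither the allele, the deleted part of Kat7, the cells in which it was deleted, nor the age or number of mice.

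Sirtuins remove acetyl and other acyl groups from lysines, and consume NAD+ for each group removed. SIRT1, SIRT6 and SIRT7 are found mainly in the nucleus, SIRT2 mainly in the cytoplasm, and SIRT3, SIRT4 and SIRT5 in mitochondria. CCAR2, long known as DBC1, binds the catalytic domain of SIRT1 and inhibits it, while its paralog CCAR1 is a coactivator of p53 and of nuclear receptors. In macrophages SIRT1 is known to restrain NF-kB by deacetylating RELA. The series title names CCAR2 and its lactylation by KAT7, which are events on protein. RNA levels alone were measured here.

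Totals over genes were 19906726 to 20660090 counts per library, and levels of a gene are given as CPM, its counts scaled to library size. On that scale 3 counts correspond to 0.145 to 0.152 CPM. Kat7 itself had 41.4, 42.2 and 38.2 CPM in KAT7KO libraries, against 73.2, 70.3 and 69.0 CPM in Ctrl libraries (log2 fold change -0.80, adjusted p = 9.63e-07). Counts over the whole gene do not show which part was deleted. Ctrl replicate 1 stood apart from the other Ctrl libraries. Its counts differed from theirs by a mean chi-square per gene of 10.8 and 18.8, against 2.63 to 3.65 for the other pairs within a genotype. Ccar2, Sirt1, Sirt6, Parp14 and Foxo3 are given with and without it below. The marker sums and the log2 fold changes of most list genes are given with all libraries only. All 10 macrophage markers were tested. Cebpa was higher and Itgam and Lyz2 were lower in KAT7KO, 7 were not called, and the median log2 fold change was -0.009. Their sum, in which abundant markers weigh most, lay between 22760 and 23600 CPM in KAT7KO and between 27900 and 37720 CPM in Ctrl. Of the marker lists of other cells, that of B cells had 2 of 4 tested genes higher in KAT7KO, with a sum of 8.16 to 9.28 CPM there and of 4.16 to 5.57 CPM in Ctrl. S100a8, the tested neutrophil marker, was also higher in KAT7KO, and the list summed to 10.7 to 12.3 CPM there against 7.20 to 7.39 CPM in Ctrl. For T and NK cells 0 of 2 passed, with sums of 3.01 to 5.16 CPM in KAT7KO and 2.54 to 2.95 CPM in Ctrl, and for dendritic cells 0 of 2, with 3.51 to 3.88 CPM in KAT7KO and 2.84 to 4.89 CPM in Ctrl. Mast cell markers had 1 of 3 lower in KAT7KO, and summed to 2.44 to 3.26 CPM there and 3.13 to 5.07 CPM in Ctrl. Markers of erythroid cells and megakaryocytes had 1 of 1 lower, with 36.7 to 39.4 CPM in KAT7KO and 49.8 to 68.3 CPM in Ctrl, and those of stroma and endothelium 2 of 5 lower, with 591 to 603 CPM in KAT7KO and 624 to 848 CPM in Ctrl. Camp, Cd8a, Ncr1, Cd209a and Mcpt4 had 3 counts or fewer in every library. The part of such cells in the results below was not tested, and in bulk RNA fewer cells of a type and less RNA per cell cannot be told apart.

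Stretches upstream of RefSeq transcript starts are shown for Sirt2 and Sirt6, the members whose RNA differed between the genotypes, and for Sirt1, the enzyme that CCAR2 inhibits. They are from RefSeq on build GRCm38.p6, trimmed to bases outside exons annotated by GENCODE vM21, and run 5′ to 3′ on the strand of the gene. The Sirt2 stretch, at chr7:28766641-28766734 on the plus strand, lies between annotated exons of Sirt2 and of Nfkbib, a gene read from the other strand whose longest annotated transcript spans it. The Sirt6 stretch, at chr10:81627323-81627471 on the minus strand, lies upstream of a second annotated start and inside the gene's first intron. The Sirt1 stretch is at chr10:63339051-63339285 on the minus strand. Capitals mark matches on either strand to the GC box GGGCGG and the E-box CACGTG.
Sirt2: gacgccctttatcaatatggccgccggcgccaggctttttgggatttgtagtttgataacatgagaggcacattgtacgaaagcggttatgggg
Sirt6: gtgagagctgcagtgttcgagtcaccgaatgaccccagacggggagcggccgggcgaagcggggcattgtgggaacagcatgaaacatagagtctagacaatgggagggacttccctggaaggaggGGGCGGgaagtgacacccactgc
Sirt1: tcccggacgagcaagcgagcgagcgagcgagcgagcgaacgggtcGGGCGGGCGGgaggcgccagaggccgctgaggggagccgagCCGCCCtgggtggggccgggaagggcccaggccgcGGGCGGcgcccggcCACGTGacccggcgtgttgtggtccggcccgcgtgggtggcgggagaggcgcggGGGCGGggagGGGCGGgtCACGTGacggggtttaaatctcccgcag

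Over the full window of 250 bases before a start, the Sirt1 window was the densest of the members in CpG. The window of Sirt1 held 39 CpG and 79.2% G+C, more CpG than 98.4% of the 32841 windows of all genes, with 6 matches to the GC box, some overlapping, and 2 to the E-box. The Sirt2 window held 13 CpG, with 1 GC box and 2 CCAAT matches that lie outside the printed stretch. The pair of Sirt6 windows held 20 and 13 CpG. Among 10 windows of 8 members that had one, 6 held a GC box and 2 an E-box, against 32.7% and 6.02% of all windows. The TATA box TATAAA was in 0 of the 10 and in 12.4% of all windows. CCAAT was in 3 of the 10 and in 33.9% of all windows, and the ETS core CCGGAA in 4 of the 10 and in 12% of all windows. The palindromic NRF1 motif was in 1 of the 10, a Sirt6 window, and in 0.783% of all windows, and the CRE TGACGTCA in 0 of the 10 and in 1.55%. These matches describe letters and say nothing of binding.

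The RNA of 2 of the 9 genes differed between the genotypes. Sirt2, the cytoplasmic sirtuin, was higher in KAT7KO, and Sirt6, a nuclear sirtuin, was lower. The other 7, Sirt1 and both CCAR genes among them, did not pass an adjusted p of 0.05 in edgeR's quasi-likelihood test with Benjamini-Hochberg adjustment over all genes tested. The share called was near that of all genes, of which 23.9% were called, 10.7% higher and 13.2% lower. With a trend on gene length removed, calls over all genes were 2565 higher and 1519 lower, in place of 1335 higher and 1652 lower. Without an adjusted threshold, 3 of the 9 (33.3%) were below an unadjusted p of 0.05, against 36.3% of all genes tested. The 3 libraries of each genotype did not overlap in CPM for 4 members, Sirt2, Sirt3, Sirt6 and Ccar2, and 41.0% of all genes had such a gap. The median log2 fold change of the members was -0.05, and 3 lay above and 6 below 0. Over all genes tested the median was 0.0023. The labels call the replicates biological without saying whether each came from its own mouse, so that p-values rest on the spread among the libraries at hand, which may be technical.

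**Figure D1:**
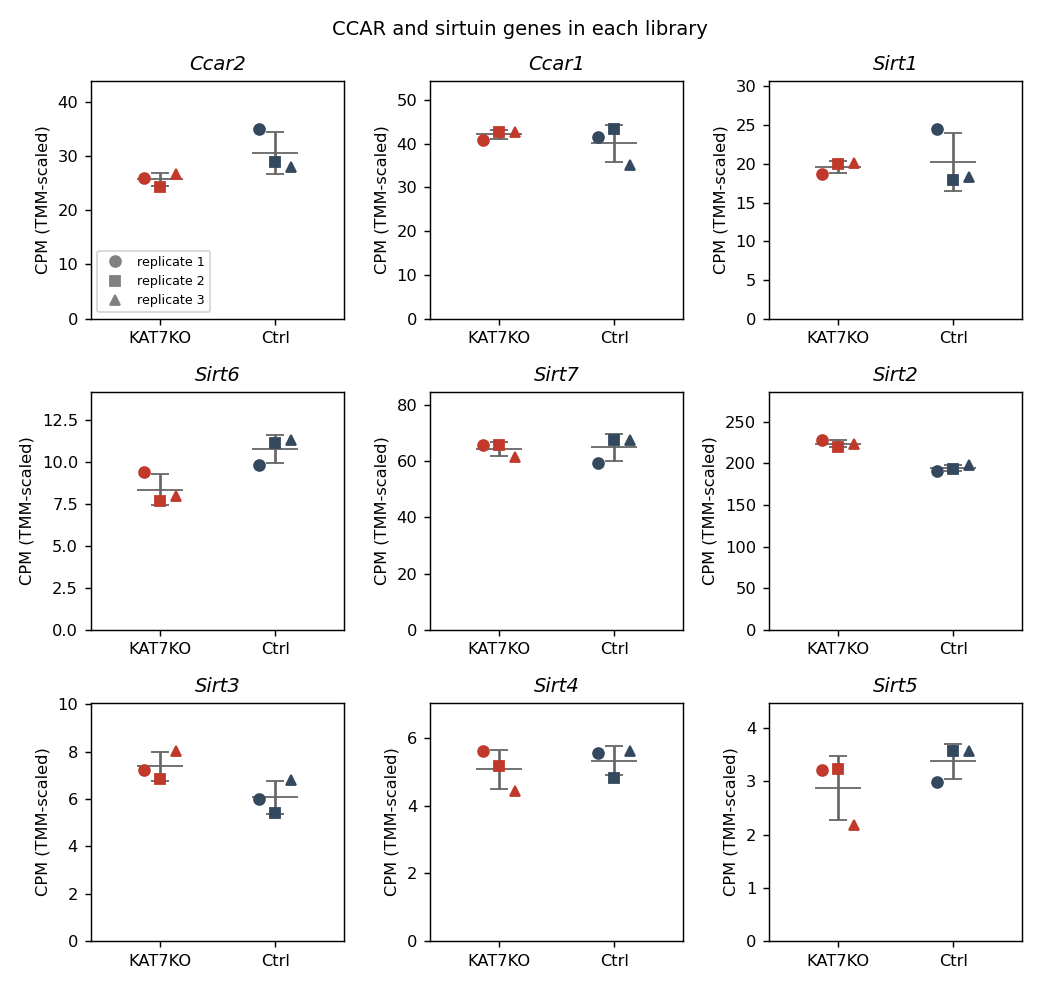
CPM after library scaling (vertical axes, from 0) of each gene in the 3 KAT7KO and 3 Ctrl libraries, with symbols for the replicate and bars for mean ± SD. Sirt2 sits at 220 to 229 CPM in KAT7KO against 191 to 198 CPM in Ctrl, and Ctrl replicate 1 is the highest library for Ccar2 and Sirt1.

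Ccar2 (ENSMUSG00000033712, chromosome 14) had 25.97, 24.3 and 26.7 CPM in KAT7KO libraries, against 35.03, 28.9 and 27.9 CPM in Ctrl libraries. All KAT7KO values lay below all Ctrl values, and the nearest libraries were replicate 3 of KAT7KO and replicate 3 of Ctrl. The level was 83.9% of Ctrl with a 95% interval of 73.1% to 96.2% (log2 fold change -0.25, adjusted p = 0.0604), so the call was missed. Ctrl replicate 1 was 23.4% above the mean of the other Ctrl libraries. Leaving it out gave -0.15 (adjusted p = 0.177), while leaving out Ctrl replicate 3 brought the call, at -0.32 (adjusted p = 0.0192). Ccar2 also passed with upper-quartile scaling (adjusted p = 0.0469) and with no filter on low counts (adjusted p = 0.0414). In all it passed in 3 of the 15 alternative settings, and DESeq2 (adjusted p = 0.1) was not among them. The authors' deposited table gives Ccar2 a log2 fold change of -0.25 and an adjusted p-value of 0.100. In the annotation Ccar2 overlaps Bin3 on the other strand, and Bin3 had a log2 fold change of 0.12 (adjusted p = 0.143). Bin3 had 64.3 to 65.5 CPM in KAT7KO and 56.3 to 61.5 CPM in Ctrl. Without a known strand setting of the counting, reads of these genes in the shared span cannot be told apart.

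Ccar1 (ENSMUSG00000020074, chromosome 10) had 40.9, 42.7 and 42.6 CPM in KAT7KO libraries, against 41.5, 43.4 and 35.2 CPM in Ctrl libraries. The groups overlapped, and the lowest value was Ctrl replicate 3. The level was 105% of Ctrl with a 95% interval of 93.4% to 118% (log2 fold change 0.07, adjusted p = 0.546). Without Ctrl replicate 3 the log2 fold change was -0.01. With the length trend removed it was 0.19 and passed (adjusted p = 0.0410). The paralogs lay on different sides of 0 in the fit with all libraries, a difference between genes that was not tested.

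Sirt1 (ENSMUSG00000020063, chromosome 10) had 18.7, 19.9 and 20.1 CPM in KAT7KO libraries, against 24.5, 17.9 and 18.3 CPM in Ctrl libraries. Ctrl replicate 1 was the highest of the 6 and was 35.7% above the mean of the other Ctrl libraries, and the KAT7KO values lay between it and them. The level was 96.6% of Ctrl with a 95% interval of 81.7% to 114% (log2 fold change -0.05, adjusted p = 0.784). Without Ctrl replicate 1 the log2 fold change turned to 0.11 (adjusted p = 0.405), and with the length trend removed to 0.03. Of the genes tested, 95.8% stood less far above the other Ctrl libraries in Ctrl replicate 1 than Sirt1 did, or below them, and for Ccar2 this share was 90.6%.

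Sirt6 (ENSMUSG00000034748, chromosome 10), which deacetylates histone H3 and represses glycolytic genes, had 9.38, 7.66 and 7.98 CPM in KAT7KO libraries, against 9.81, 11.1 and 11.3 CPM in Ctrl libraries. The groups did not overlap, but KAT7KO replicate 1 and Ctrl replicate 1 were close. Sirt6 fell, with a log2 fold change of -0.37 (SE 0.12) and an adjusted p of 0.0368. Its level was 77.6% of that in Ctrl, and the 95% interval ran from 65.1% to 92.5%. Its counts were 154 to 187 in KAT7KO and 203 to 231 in Ctrl. Counting error alone gives a coefficient of variation of 7.75% in KAT7KO and 6.73% in Ctrl at such counts, and the observed ones were 10.9% in KAT7KO and 7.64% in Ctrl. The call was lost with DESeq2 (adjusted p = 0.0920), without KAT7KO replicate 2 (adjusted p = 0.149) or replicate 3 (adjusted p = 0.129), and without Ctrl replicate 2 (adjusted p = 0.108) or replicate 3 (adjusted p = 0.0784). It was also lost with the replicate number as a block (adjusted p = 0.0560) and in the test of a change over 1.2-fold (adjusted p = 0.433). Sirt6 passed in 8 of the 15 alternative settings. The call was kept without Ctrl replicate 1 (log2 fold change -0.43, adjusted p = 0.00679). The authors' deposited table gives Sirt6 a log2 fold change of -0.36 and an adjusted p-value of 0.0920.

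Sirt7 (ENSMUSG00000025138, chromosome 11), a sirtuin of the nucleolus linked to transcription of ribosomal RNA genes, had 66.0, 65.7 and 61.7 CPM in KAT7KO libraries, against 59.5, 67.7 and 67.6 CPM in Ctrl libraries. The groups overlapped. The level was 99.3% of Ctrl, and its 95% interval of 90.1% to 109% was the narrowest among the members not called (log2 fold change -0.01, adjusted p = 0.925). The sign turned positive without KAT7KO replicate 3, without Ctrl replicate 2 or without Ctrl replicate 3 (0.02 in each), and with the length trend removed (0.07). In the annotation Sirt7 overlaps Mafg on the same strand, and Mafg had a log2 fold change of -0.04 (adjusted p = 0.63). Reads of these genes in the shared span cannot be told apart by strand.

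Sirt2 (ENSMUSG00000015149, chromosome 7), which deacetylates tubulin and FOXO factors, had 229, 220 and 223 CPM in KAT7KO libraries, against 191, 193 and 198 CPM in Ctrl libraries. The groups did not overlap, and the gap between them was wider than the range within either. Sirt2 rose, with a log2 fold change of 0.21 (SE 0.05) and an adjusted p of 0.00572. Its level was 115% of that in Ctrl, and the 95% interval ran from 108% to 124%. It was the member with the most counts, 4419 to 4558 in KAT7KO and 3951 to 4046 in Ctrl. Its coefficient of variation was 1.98% in KAT7KO and 1.88% in Ctrl. Sirt2 passed with each library left out in turn (adjusted p = 8.05e-05 to 0.0478), and lost its call when a change over 1.2-fold was asked for. The authors' deposited table gives it a log2 fold change of 0.21 and an adjusted p-value of 0.00190. Its start lies within the annotated span of Nfkbib, whose log2 fold change was 0.16 (adjusted p = 0.149). The strand setting of the counting is not given, so reads of these genes in the shared span cannot be told apart.

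The mitochondrial sirtuins were the members with the fewest counts, and 0 of 3 passed. Sirt3 (ENSMUSG00000025486, chromosome 7), the main deacetylase of mitochondria, had 7.22, 6.86 and 8.04 CPM in KAT7KO libraries, against 5.99, 5.42 and 6.81 CPM in Ctrl libraries. The groups did not overlap, with KAT7KO replicate 2 and Ctrl replicate 3 nearly equal. The level was 121% of Ctrl with a 95% interval of 99.3% to 148% (log2 fold change 0.28, adjusted p = 0.151). It passed with the length trend removed (0.37, adjusted p = 0.0458). Sirt3 overlaps Psmd13 and Ric8a on the other strand. Of these Psmd13, a proteasome subunit gene, rose by 0.20 on the log2 scale (adjusted p = 0.0148), while Ric8a had a log2 fold change of 0.09 (adjusted p = 0.337). Psmd13 had far more reads than Sirt3, at 153 to 159 CPM in KAT7KO and 127 to 143 CPM in Ctrl. Here too reads in the shared span cannot be told apart, and their part in the Sirt3 values was not tested.

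Sirt4 (ENSMUSG00000029524, chromosome 5), which acts on glutamate dehydrogenase and on the pyruvate dehydrogenase complex, had 5.62, 5.17 and 4.45 CPM in KAT7KO libraries, against 5.56, 4.84 and 5.63 CPM in Ctrl libraries. These values overlapped, and the level was 95.1% of Ctrl with a 95% interval of 76.3% to 119% (log2 fold change -0.07, adjusted p = 0.758). Sirt5 (ENSMUSG00000054021, chromosome 13), which removes succinyl, malonyl and glutaryl groups, had 3.21, 3.23 and 2.17 CPM in KAT7KO libraries, against 3.00, 3.57 and 3.57 CPM in Ctrl libraries. KAT7KO replicate 3 was the lowest, and the other KAT7KO values lay within the Ctrl range. The level was 85.1% of Ctrl with a 95% interval of 63.1% to 115% (log2 fold change -0.23, adjusted p = 0.430), the widest relative interval of the members. With 43 to 65 counts in KAT7KO and 62 to 73 in Ctrl, the coefficient of variation in KAT7KO was 21.1%, and counting error alone gives 13.2% there.

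**Figure D2:**
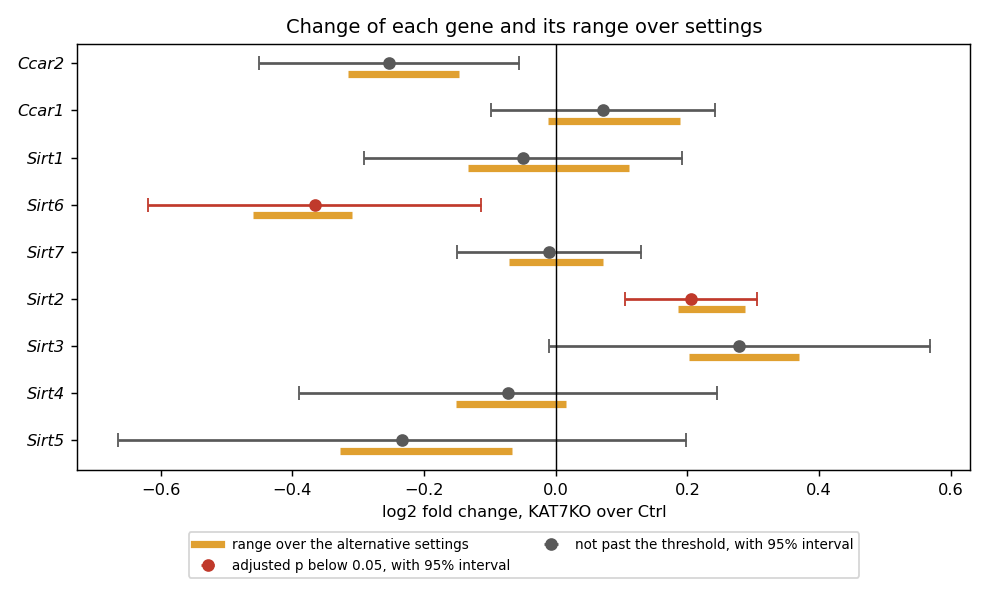
Log2 fold change of each gene, KAT7KO over Ctrl, with its 95% interval (points and thin bars, red where the adjusted p is below 0.05) and the range of the estimate over the alternative settings (thick bars). Sirt6 (-0.37) and Sirt2 (0.21) are the members past the threshold, and the ranges of Ccar1, Sirt1, Sirt7 and Sirt4 cross 0.

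Levels of different genes were compared as FPKM, which the authors scaled to gene length. Sirt2 was the most abundant member in both genotypes, at 44.2 ± 0.854 FPKM in KAT7KO and 38.8 ± 0.378 FPKM in Ctrl (SD, n = 3 each). Sirt7 followed at 12.4 ± 0.458 FPKM in KAT7KO and 12.7 ± 0.660 FPKM in Ctrl, and then Ccar2 at 5.47 ± 0.266 FPKM in KAT7KO and 6.62 ± 0.990 FPKM in Ctrl. In KAT7KO the order went on as Ccar1 (3.96 FPKM), Sirt1 (3.65 FPKM) and Sirt6 (2.97 FPKM), and the libraries of neighbouring genes in this order did not overlap. Ccar1 was 1.085 times Sirt1 there. FPKM uses 1 length per gene, and an error in that length would move a gene alike in every library. In Ctrl the same genes stood at 3.82 FPKM for Ccar1, 3.83 FPKM for Sirt1 and 3.88 FPKM for Sirt6, and did not differ beyond their spread. The mitochondrial sirtuins came last in both, in the order Sirt4 (2.10 FPKM in KAT7KO, 2.24 FPKM in Ctrl), Sirt3 (1.23 and 1.02 FPKM in KAT7KO and Ctrl) and Sirt5 (0.468 and 0.557 FPKM in KAT7KO and Ctrl).

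**Figure D3:**
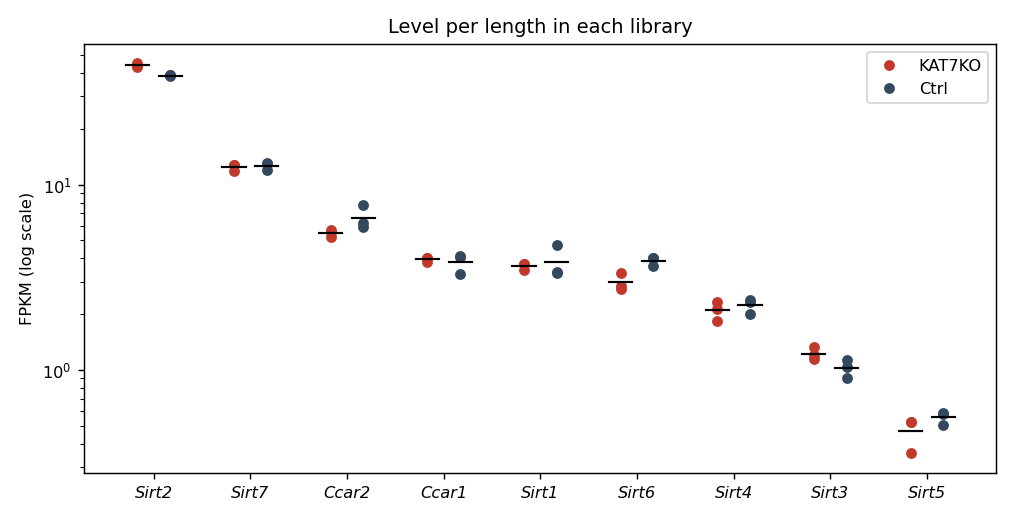
FPKM of each gene (log axis) in every library, genes ordered by their mean in KAT7KO, with a bar at each mean. Sirt2 lies near 40 FPKM and Sirt5 near 0.5 FPKM, and Ccar1, Sirt1 and Sirt6 share a level in Ctrl.

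Ratios between members within a library do not depend on library scaling, and are given as a description with no test. For each Sirt1 count there were 1.39, 1.22 and 1.33 Ccar2 counts in KAT7KO libraries, against 1.43, 1.62 and 1.52 in Ctrl libraries. In Ctrl replicate 1 both genes were high, and the ratio there was the lowest of the Ctrl libraries, close to that of KAT7KO replicate 1. For each Ccar1 count there were 0.635, 0.569 and 0.628 Ccar2 counts in KAT7KO libraries, against 0.845, 0.666 and 0.791 in Ctrl libraries. Neither of these ratios overlapped between the genotypes. Ccar2, Sirt2 and Sirt6 did not overlap on their own either, as was so for 41.0% of all genes tested. The share for ratios of other gene pairs was not computed. Of 4 further count ratios, Sirt2 to Sirt6 and Sirt2 to Sirt7 did not overlap, while Ccar1 to Sirt1 (2.12 to 2.19 in KAT7KO, 1.69 to 2.43 in Ctrl) and Sirt6 to Sirt1 (0.384 to 0.503 in KAT7KO, 0.3996 to 0.623 in Ctrl) did. Sirt2 made up 65.9% ± 0.679 of the summed sirtuin FPKM in KAT7KO and 61.6% ± 0.148 in Ctrl (SD, n = 3 each), and the nuclear sirtuins together 28.4% ± 0.441 in KAT7KO and 32.4% ± 0.420 in Ctrl. Of the nuclear sirtuins, Sirt6 held 4.12% to 4.87% in KAT7KO and 5.73% to 6.41% in Ctrl. Shares of a sum are tied together, so a higher level of Sirt2 lowers the shares of the other sirtuins. Sirt7 held 18.6% in KAT7KO and 20.1% in Ctrl on average, although its own level was 99.3% of Ctrl and was not called. The mitochondrial sirtuins held 5.35% to 5.90% in KAT7KO and 5.62% to 6.36% in Ctrl, which overlap.

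**Figure D4:**
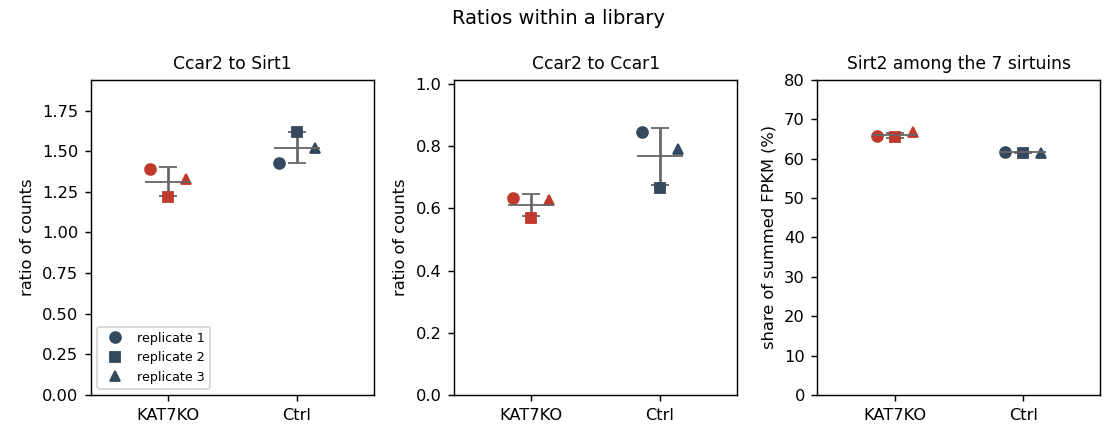
Ratio of Ccar2 to Sirt1 counts and of Ccar2 to Ccar1 counts, and the share of Sirt2 in the summed FPKM of the sirtuins (%), in each library, with symbols for the replicate and bars for mean ± SD, all axes from 0. Each of the 3 quantities drawn is separated between KAT7KO and Ctrl, with the nearest Ccar2 to Sirt1 values at 1.39 in KAT7KO and 1.43 in Ctrl. The CPM of 41.0% of all genes tested was separated too.

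The genes whose log2 CPM followed a member most closely over the 6 libraries were found by Pearson's r among 9346 other genes with a mean of at least 5 CPM. For Ccar2 they were Cic and Prrc2c (r = 0.997 for both) and Smad5 (0.995), and 161 genes reached 0.95. For Sirt6 they were Acsf3 (0.991), Trappc14 (0.987) and Rfng (0.986), and 54 genes reached 0.95. For Sirt2 they were Pon2 (0.995), Mknk2 and Akr1c13 (0.994 for both), and 365 genes reached 0.95. The 6 libraries share the split by genotype and the position of Ctrl replicate 1, so these values describe likeness and carry no test.

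Genes around the sirtuins were described by 10 lists of enzymes, regulators, substrates and partners, with 129 genes tested, each counted once. Of these, 19 were higher and 16 lower in KAT7KO, and the median log2 fold change of the 129 was 0.03. Over all genes tested 10.7% were higher and 13.2% lower, and the counts of each list below stand against the same shares. Whether the lists differ from all genes was not tested. Sirtuins depend on NAD+ synthesis and share NAD+ with other enzymes that use it. Of 14 tested genes of NAD+ synthesis and salvage, 2 rose and 1 fell, with a median of 0.07. Naprt, which starts NAD+ synthesis from nicotinic acid, had 3.81, 3.63 and 4.65 CPM in KAT7KO libraries, against 5.94, 6.74 and 6.02 CPM in Ctrl libraries, with a log2 fold change of -0.63 (adjusted p = 0.00818). Kynu and Tdo2, enzymes of tryptophan breakdown, rose by 0.95 and 1.605 but had means of 1.32 CPM and 0.803 CPM in KAT7KO, against 0.682 CPM and 0.259 CPM in Ctrl. Kynu lost its call with any 1 library left out (adjusted p = 0.0603 to 0.217). Tdo2 lost it with DESeq2, and without Ctrl replicate 3 or any 1 KAT7KO replicate (adjusted p = 0.0509 to 0.135). The list had 0 higher with DESeq2, under the filter at 5 CPM and without any 1 KAT7KO replicate, and 5 higher with the length trend removed. Nampt, the rate-limiting salvage enzyme, was chosen for mention after its values were seen. It had 156, 161 and 165 CPM in KAT7KO libraries, against 135, 148 and 152 CPM in Ctrl libraries (log2 fold change 0.15, adjusted p = 0.0586).

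Of 10 tested NAD+ consuming enzymes other than sirtuins, 2 rose and 1 fell, with a median of -0.01. Bst1, which encodes the surface ADP-ribosyl cyclase CD157, had 161, 162 and 157 CPM in KAT7KO libraries, against 115, 126 and 122 CPM in Ctrl libraries. Its log2 fold change was 0.40 (SE 0.05), a rise at an adjusted p of 9.00e-05. Parp2, a DNA damage-dependent poly-ADP-ribose polymerase gene, rose by 0.24, and Parp14, an interferon-inducible member of the same family, fell by 0.35. Ctrl replicate 1 was the highest library for Parp14, and without it the log2 fold change was -0.22 (adjusted p = 0.00409). Parp14 lost its call without KAT7KO replicate 1 or 2 or Ctrl replicate 2 (adjusted p = 0.0558 to 0.0828), and Parp2 without KAT7KO replicate 2 or 3 or Ctrl replicate 2 or 3 (adjusted p = 0.0684 to 0.178). Of 10 tested zinc-dependent deacetylases, the other class of lysine deacetylases, Hdac9 and Hdac8 rose by 0.77 and 0.37 and 0 fell, with a median of 0.05. Hdac9 had 6.17, 7.81 and 6.77 CPM in KAT7KO libraries, against 4.45, 4.30 and 3.43 CPM in Ctrl libraries. Hdac8 kept its call when Ctrl replicate 3 was left out, and lost it without any other 1 library (adjusted p = 0.0657 to 0.162).

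Among 13 tested regulators of SIRT1 other than the CCAR genes, 3 fell and 0 rose, with a median of -0.04. Those that fell were Bcl6 (-0.26) and Hic1 (-0.40), which encode repressors, and Usp22 (-0.21), which encodes a deubiquitinase. The count that fell was 0 without any 1 KAT7KO replicate, 1 without Ctrl replicate 2 and 1 with DESeq2. With the length trend removed 0 fell and 1 rose. Of 22 SIRT1 substrates, 2 rose and 3 fell, with a median of -0.03. Epas1, the gene of the hypoxia factor HIF-2 alpha, fell by 0.37 (adjusted p = 0.000583) and Foxo3, a forkhead factor gene, by 0.44 (adjusted p = 0.00228). Foxo3 had 45.6, 49.6 and 50.7 CPM in KAT7KO libraries, against 76.6, 61.1 and 60.4 CPM in Ctrl libraries, again with Ctrl replicate 1 the highest, and without that library Foxo3 had a log2 fold change of -0.32 (adjusted p = 1.44e-05). Ppargc1a, outside the naming rule, fell as well (-1.41), with means of 0.619 CPM in KAT7KO and 1.65 CPM in Ctrl. The autophagy genes Atg7 and, outside the rule, Atg5 rose by 0.22 and 0.27. Atg7 lost its call without KAT7KO replicate 2 or Ctrl replicate 2 (adjusted p = 0.0560 to 0.0687), Atg5 without these or KAT7KO replicate 1 (adjusted p = 0.0502 to 0.108), and Ppargc1a without KAT7KO replicate 2 or 3 or Ctrl replicate 2 (adjusted p = 0.0587 to 0.0864).

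Of 17 tested partners of CCAR1 and CCAR2, 2 rose and 1 fell, with a median of 0.03. Chek2, the DNA damage checkpoint kinase gene, had 31.2, 32.9 and 31.2 CPM in KAT7KO libraries, against 23.0, 19.7 and 23.3 CPM in Ctrl libraries, a rise with a log2 fold change of 0.53 (adjusted p = 0.000432). Ctnnb1, the beta-catenin gene, rose by 0.20, and Brca1, a DNA repair gene, fell by 0.61. Brca1 kept its call when Ctrl replicate 3 was left out, and lost it without any other 1 library (adjusted p = 0.0653 to 0.175). Ctnnb1 lost its call without KAT7KO replicate 1 or 2 (adjusted p = 0.0533 to 0.0534). Zfp326, whose protein forms the DBIRD complex with CCAR2, was chosen for mention after its values were seen and had a log2 fold change of 0.17 (adjusted p = 0.247).

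Of 11 SIRT2 substrates and partners, 2 rose and 3 fell, with a median of -0.03. The falls were in Foxo3 and in the mitotic genes Cdc20 (-0.73) and Bub1b (-0.42), and the rises, outside the naming rule, in Acly (0.16) and Kmt5a (0.16). These rises were lost without any 1 KAT7KO replicate or Ctrl replicate 2, and that of Acly also without Ctrl replicate 3 (adjusted p = 0.0927 to 0.164 for Acly and 0.131 to 0.161 for Kmt5a). Bub1b lost its call without KAT7KO replicate 3 (adjusted p = 0.0734). Of 15 tested substrates of mitochondrial sirtuins, Acadvl, a fatty acid oxidation enzyme gene, and Sod2, the mitochondrial superoxide dismutase gene, rose by 0.32 and 0.20 and 0 fell, with a median of 0.11. Without KAT7KO replicate 2 neither passed (adjusted p = 0.0514 for Acadvl), and Sod2 also lost its call without KAT7KO replicate 3 (adjusted p = 0.0518 to 0.0625). Of 11 partners of SIRT6 and SIRT7, 1 rose and 2 fell, with a median of -0.05. Those were Ubtf (0.16), a factor of RNA polymerase I, Polr1b (-0.39), a subunit of it, and the glycolytic enzyme gene Pkm (-0.17). Without any 1 KAT7KO replicate or Ctrl replicate 2, 0 genes of the list passed in either direction (adjusted p of 0.0527 to 0.165 for Ubtf, which was lost without Ctrl replicate 3 too, 0.0585 to 0.108 for Polr1b and 0.0596 to 0.0898 for Pkm).

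Of 19 enzymes of lactylation and lactate handling, 4 rose and 3 fell, with a median of 0.08. Aars, the alanyl-tRNA synthetase gene whose product is also described as a lactyltransferase, had 187, 192 and 189 CPM in KAT7KO libraries, against 162, 154 and 152 CPM in Ctrl libraries, and rose by 0.28 on the log2 scale (adjusted p = 0.000869). Glo1, which handles methylglyoxal, rose by 0.30, and Suclg2, a succinyl-CoA synthetase subunit gene, fell by 0.53. Outside the naming rule, the acetyltransferase genes Kat8 and Kat5 rose by 0.38 and 0.24, and Slc16a3 and Ldhb, a lactate transporter and a lactate dehydrogenase gene, fell by 0.25 each. With 1 library left out in turn, 1 to 7 genes of the list were higher and 1 to 4 lower. Glo1 lost its call without KAT7KO replicate 2 or 3 (adjusted p = 0.0582 to 0.123). Kat8, Kat5, Slc16a3 and Ldhb lost theirs without any of 3 to 5 libraries each, KAT7KO replicate 2 and Ctrl replicate 2 among them for all 4, at adjusted p of 0.0643 to 0.149. Of the 27 list genes named by the rule, Bst1, Hdac9, Chek2 and Cdc20 passed in every setting run, and Naprt, Epas1, Foxo3, Aars and Suclg2 lost the call only when a change over 1.2-fold was asked for. Kynu, Parp2, Hdac8, Hic1, Brca1 and Ubtf passed in at most 5 of the alternative settings.

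**Figure D5:**
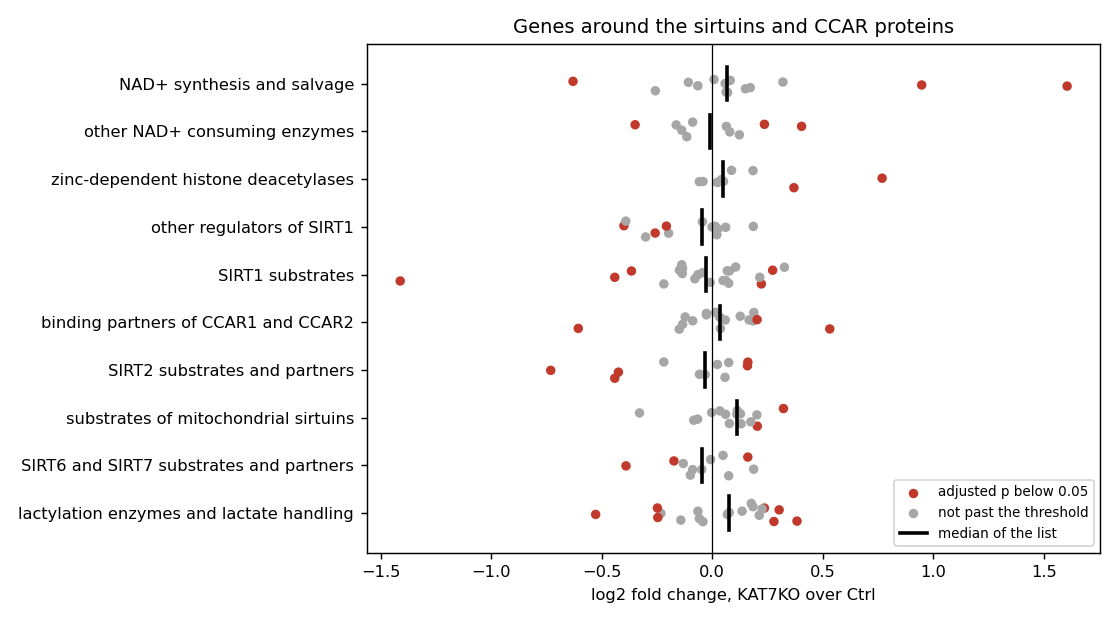
Log2 fold change, KAT7KO over Ctrl, of each tested gene of the 10 lists (points, red where the adjusted p is below 0.05) with the median of each list (black bars). The list medians lie between -0.05 and 0.11, and red points stand on both sides of 0 in 7 of the lists.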

How the data were processed

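RNA from 6 libraries of bone marrow-derived macrophages, 3 KAT7KO and 3 Ctrl, was compared, with groups from the sample titles. The authors deposited raw whole-number counts per gene with no normalization, and FPKM values scaled by them to gene length and library size, per the file headers. The authors' log2 fold change, p-value and adjusted p-value stood in the same deposited table. The submitters' processing notes list FastQC, fastp, HISAT2, featureCounts, DESeq2 and GRCm39. The treatment of strand and of multi-mapping reads was not given in the sources at hand.

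The 12483 genes past filterByExpr, out of 18039, were tested in R 4.3.3 with edgeR 4.0.16 after TMM scaling (estimateDisp, glmQLFit with robust estimation, glmQLFTest) without covariates, adjusting p by Benjamini-Hochberg over every tested gene, at a threshold of 0.05. The standard error is the log2 fold change over the square root of F. Alternatives were DESeq2 size factors, upper-quartile factors, no filter, a filter of 5 CPM in 3 libraries, DESeq2 1.42.0, limma-voom (limma 3.58.1), the replicate number as a block, a loess trend (span 0.5) on gene length in the offsets, glmTreat at 1.2-fold, and leaving out each library. Gene length was derived from count and FPKM. On simulated counts for the 12483 genes, edgeR found 22% of genes changed 1.2-fold and 72% of those changed 1.5-fold. The simulation changed 50 genes at each of 4 folds and gave both genotypes the same spread. It yielded 146 calls, against 2987 in the data, so these shares need not hold for the data.

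Members and lists were chosen with earlier results of these data known. Named by rule were the members, Kat7, up to 3 genes past the threshold per list in order of p (filled to 2 by level), and the 3 genes most like Ccar2 and each member called. Of the listed genes 138 of 144 had values, with Aars1 and Bmal1 matched as Aars and Arntl. The reference was GRCm38, so the only coordinates given are those of the RefSeq sequences printed, and gene overlaps were read from GENCODE vM21.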

Additional observations from a re-analysis of the deposited data

How the results depend on the processing

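Sirt2 kept its rise in the 15 other settings but for the test of a change over 1.2-fold (log2 fold change 0.21), with 0.19 to 0.22 when 1 library was left out. Sirt6 kept its direction in all 15, with -0.46 to -0.31 when 1 library was left out, and missed the threshold with DESeq2 (-0.36), with the replicate block (-0.37, adjusted p = 0.0560) and with the 1.2-fold test (-0.37). Ccar2 was called with upper-quartile factors (-0.27) and no filter (-0.25), and ranged from -0.32 to -0.15 when 1 library was left out. The length trend brought calls for Ccar1 (0.19) and Sirt3 (0.37) and turned the sign of Sirt1 (0.034) and Sirt7 (0.071). Leaving out 1 library gave -0.011 to 0.13 for Ccar1, -0.13 to 0.11 for Sirt1, -0.071 to 0.022 for Sirt7 and -0.15 to 0.016 for Sirt4; the cause was not tested. Sirt5 had no value under the filter at 5 CPM.

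Members called higher numbered 3 with the length trend and 0 with the 1.2-fold test. Members called lower numbered 2 with upper-quartile factors and with no filter, 0 with DESeq2, the replicate block and the 1.2-fold test, and 0 to 1 with 1 library left out, against 1 higher each time. Over all genes the calls were 2565 higher with the length trend, 199 higher and 641 lower with the 1.2-fold test, and 663 to 1708 higher and 1071 to 1820 lower with 1 library left out. For the lists together they were 12 higher under the filter at 5 CPM, 41 higher and 10 lower with the length trend, 3 and 1 with the 1.2-fold test, and 4 to 26 higher and 6 to 21 lower with 1 library left out. No named list gene changed sign in the settings run, and FPKM levels moved by less than 1 SD on the other scale, while shares within a library cannot move with library scaling. Deviations of libraries with the same replicate number correlated at -0.00436, 0.00587 and 0.0213, and those with different numbers at -0.0232 to 0.0171. The labels do not say whether a shared number means a shared mouse or preparation, and these values cannot decide it. With the replicate block the calls were 1290 higher and 1522 lower over all genes, and not every library correlated best with its own number. Counting error was largest for Sirt5, Sirt4 and Sirt3.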
